A study of Mus musculus with 40 samples.

Results

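The genes described here were 8 milk protein and lactation genes, chosen by name from the table of RNA-sequencing values of primary tumors: the caseins Csn1s1, Csn1s2a, Csn2 and Csn3, the whey protein genes Wap and Lalba, and the transcription factor genes Elf5 and Stat5a. Of these 8 genes, 5 were among the 14318 genes of the table (Csn1s1, Csn2, Csn3, Elf5 and Stat5a, with Entrez identifiers 12990, 12991, 12994, 13711 and 20850). Csn1s2a, Wap and Lalba were not analysed here. Values were available for 39 tumors in 8 model-by-treatment groups. Wild type female BALB/c mice were mated at an age of 8 w, nursed their pups for 12 to 14 d and were then inoculated through the mammary ducts with luciferase-expressing 4T1 or 66cl4 cells, which are murine triple-negative breast cancer (TNBC) lines. All tumors therefore grew in glands that had been lactating. From 3 w post-inoculation (p.i.), mice of each model were left untreated or received anti-PD-1 (200 µg), chitin (1 mg every 3 d) or chitin + anti-PD-1 by intraperitoneal injection for 2 w, and tumors were taken at 5 w p.i. Chitin was given as a blocker of chitinase-like proteins and anti-PD-1 as an immune checkpoint blocker. Each group held 5 tumors, except untreated 4T1 with 4 (tumors 1, 2, 4 and 5), so that 19 4T1 and 20 66cl4 tumors were compared.

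Caseins are the main proteins of mouse milk and are made by the alveolar secretory cells of the gland. Prolactin acts through its receptor and the kinase JAK2 on STAT5A, which enters the nucleus and switches on casein genes, and ELF5 is an ETS family factor that luminal progenitors need to become alveolar cells. After weaning, secretory cells are removed and adipocytes refill the gland, a process called involution. RNA was taken from whole tumor tissue without sorting, so that fewer cells of a type and less RNA per cell cannot be told apart in any value given here.

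Values are on the log2-like scale of the variance stabilizing transformation (VST). The lowest value, 6.05, stood for 0 reads, and low counts are compressed, so that differences understate the change of genes with few reads. Recovered reads are given beside the VST values. Tumors held 5105898 to 14800352 reads in the listed genes (median 6590274), and 52 to 293 of the genes had 0 reads in a tumor. The luminal epithelial markers were present in all tumors of both models at very different levels: the mean VST value of 9 such markers ran from 10.4 to 12.2 in 4T1 and from 7.0 to 8.2 in 66cl4 tumors. Epcam, a surface marker of epithelial cells, had 1649 to 12092 reads in 4T1 and 2 to 153 reads in 66cl4 tumors.

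The casein genes lie in a cluster on chromosome 5 (GRCm38.p6, the mm10 assembly). Csn1s1 spans 87666208 to 87682578, Csn2 87692619 to 87699429 on the minus strand, Csn1s2a 87774450 to 87788798, and Csn3 87925579 to 87932550. Elf5 lies on chromosome 2 (103412098 to 103450989) and Stat5a on chromosome 11 (100859351 to 100885169). RefSeq promoter sequences for this assembly matched 7 of the 8 members, with 9 windows of 250 bases before a start site. The windows of Csn1s1 and Csn2 are shown because these genes varied together across tumors and because each held a single match to the STAT consensus TTCNNNGAA, which is marked in capitals. The windows are chr5:87665958-87666207 on the plus strand for Csn1s1 and chr5:87699426-87699675 on the minus strand for Csn2, written from 5′ to 3′ of the gene.
Csn1s1: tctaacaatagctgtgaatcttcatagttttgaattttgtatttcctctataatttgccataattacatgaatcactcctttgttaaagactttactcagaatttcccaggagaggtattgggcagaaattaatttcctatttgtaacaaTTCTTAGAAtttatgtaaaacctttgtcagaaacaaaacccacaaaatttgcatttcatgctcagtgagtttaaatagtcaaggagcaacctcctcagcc
Csn2: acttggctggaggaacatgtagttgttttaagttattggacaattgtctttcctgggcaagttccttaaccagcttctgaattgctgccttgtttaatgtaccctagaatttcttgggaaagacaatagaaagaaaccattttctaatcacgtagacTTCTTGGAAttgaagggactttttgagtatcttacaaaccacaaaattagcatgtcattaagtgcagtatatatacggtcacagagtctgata
The match lay 100 to 92 bases before the start site in Csn1s1 and 93 to 85 bases before it in Csn2, and neither window held another of the searched motifs. Of all 32851 mouse windows of this length, 7.02% held this consensus, and of the windows of listed genes 5.92% did. The windows of Csn1s2a, Wap, Lalba, Elf5 and Stat5a held no such letters. All motifs were searched on both strands. The ETS core AGGAAG, found in 29.5% of all windows, occurred in those of Wap, Lalba and Stat5a. The glucocorticoid receptor core TGTTCT (16.1% of all windows) was found for Csn1s2a, and the full NFI palindrome (0.0365%) in no member window.

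Casein RNA was present at very different levels from tumor to tumor, also between tumors of the same group. Together, Csn1s1, Csn2 and Csn3 took 384 RPM (reads per 1000000 reads of the listed genes) in anti-PD-1-treated 4T1 tumor 1 (2199 reads, 0.0384% of all reads with a 95% Wilson interval of 0.0369 to 0.0401%). In chitin-treated 66cl4 tumor 5 they had 1 read, or 0.0976 RPM. These tumors, the highest and the lowest of the 39, differed 3938-fold. The 5 tumors with most casein reads held 64.1% of all casein reads, and 8 of the 10 tumors with the highest share were 4T1 tumors.

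**Figure D1:**
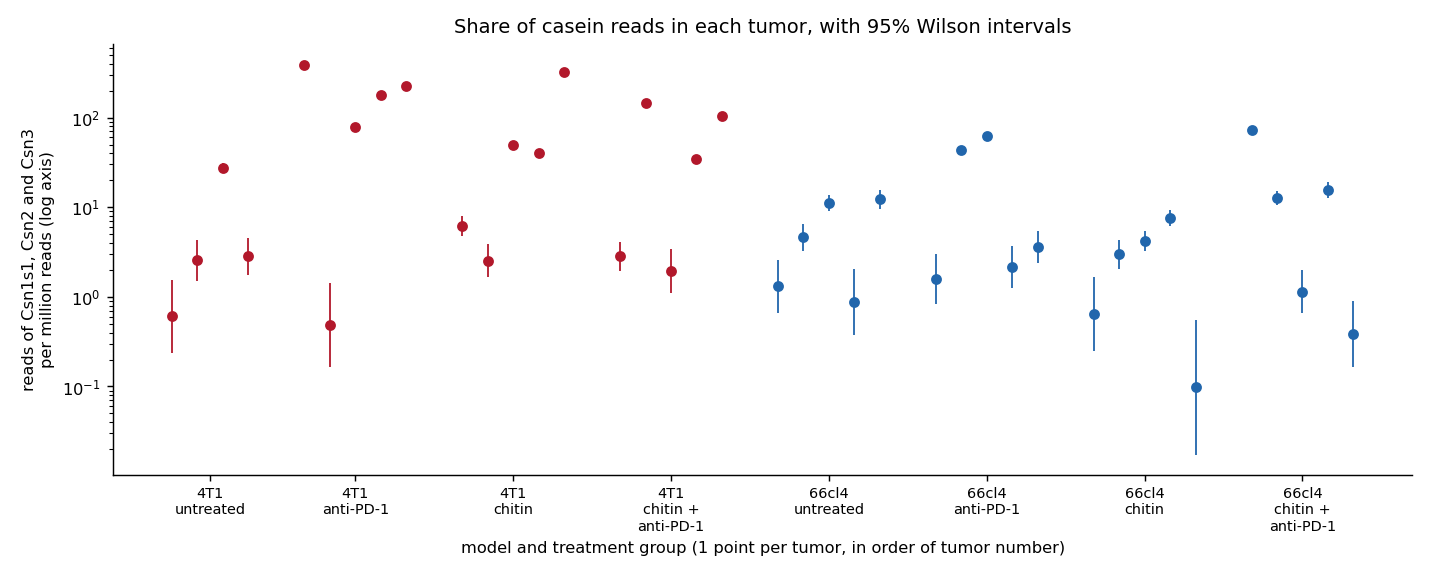
Reads of Csn1s1, Csn2 and Csn3 in RPM (log axis) in each of the 39 tumors, arranged by model (red, 4T1; blue, 66cl4) and treatment, with 95% Wilson intervals for counting error. The 4T1 anti-PD-1 group ran from 0.487 to 384 RPM and every group spanned at least 14.0-fold.

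In the 4T1 model, the median casein share was 2.69 RPM in untreated tumors (0.607 to 27.1), 180 in anti-PD-1-treated tumors (0.487 to 384), 39.9 in chitin-treated tumors (2.53 to 319) and 34.2 in chitin + anti-PD-1-treated tumors (1.95 to 146). In the 66cl4 model, it was 4.60 in untreated (0.871 to 12.2), 3.57 in anti-PD-1-treated (1.56 to 62.0), 3.00 in chitin-treated (0.0976 to 7.61) and 12.8 in chitin + anti-PD-1-treated tumors (0.382 to 73.5). All 8 groups overlapped, since each contained tumors with under 5 casein RPM. The spread within a group was 14.0-fold at the least, in untreated 66cl4 tumors, and 790-fold at the most, in anti-PD-1-treated 4T1 tumors. The lowest tumors of these 2 groups had 5 and 3 casein reads, so these folds are imprecise. Intervals cover counting error only, not the spread between tumors. No molecular identifiers were described, so reads of 1 molecule cannot be told apart and the intervals can be too narrow.

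Csn3 encodes kappa-casein, which coats and stabilises the casein micelle, and was the casein detected most widely. It had at least 1 read in all 39 tumors and more than 10 reads in 27 of them, with a median of 43.0 reads and a highest value of 829. Per kb of exon, its median level was 8.68 normalized counts and its highest 257, against medians of 1.57 for Csn1s1, 0.748 for Elf5, 0.365 for Csn2 and 43.3 for Stat5a. Exons of all annotated transcripts were merged for these lengths, which for Csn2 gave 6.93 kb, nearly the whole gene. A single transcript can be shorter, so no order of the genes is read from levels per kb.

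In untreated 4T1 tumors 1, 2, 4 and 5, Csn3 had VST values of 6.32, 6.81, 7.78 and 6.50. In anti-PD-1-treated 4T1 tumors 1 to 5, the values were 10.22, 6.41, 8.59, 9.53 and 9.47. Thus 4 of the 5 treated tumors lay above all untreated tumors and tumor 2, with 3 reads, lay among the lowest. Chitin-treated 4T1 tumors 1 to 5 had Csn3 values of 7.17, 6.50, 8.01, 7.80 and 9.64. Chitin + anti-PD-1-treated 4T1 tumors 1 to 5 had values of 6.76, 9.03, 6.68, 8.09 and 8.88. Both groups thus held tumors within the range of the untreated tumors beside tumors above it.

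In 66cl4 tumors, Csn3 lay closer to the floor. The values were 6.53, 6.93, 7.09, 6.45 and 7.35 in untreated tumors 1 to 5 and 6.54, 8.37, 7.95, 6.64 and 6.72 in anti-PD-1-treated tumors. Only tumors 2 and 3 of the anti-PD-1-treated group exceeded the untreated range. Chitin-treated 66cl4 tumors had 6.38, 6.66, 6.94, 7.20 and 6.20, and those given chitin + anti-PD-1 had 8.31, 7.45, 6.54, 7.60 and 6.35. Tumor 1 of the last group was its highest for all 3 caseins.

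Ordered by group mean, Csn3 was 8.84 ± 1.48 (SD, n = 5) in anti-PD-1-treated 4T1 tumors, 7.89 ± 1.12 (n = 5) after chitin + anti-PD-1 and 7.82 ± 1.17 (n = 5) after chitin in 4T1. These were followed by 66cl4 tumors with 7.25 ± 0.81 (chitin + anti-PD-1), 7.24 ± 0.85 (anti-PD-1) and 6.87 ± 0.38 (untreated). Untreated 4T1 tumors, with 6.85 ± 0.65 (n = 4), and chitin-treated 66cl4 tumors, with 6.68 ± 0.41, came last. Each step between neighbours in this order was smaller than the larger SD of the pair.

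**Figure D2:**
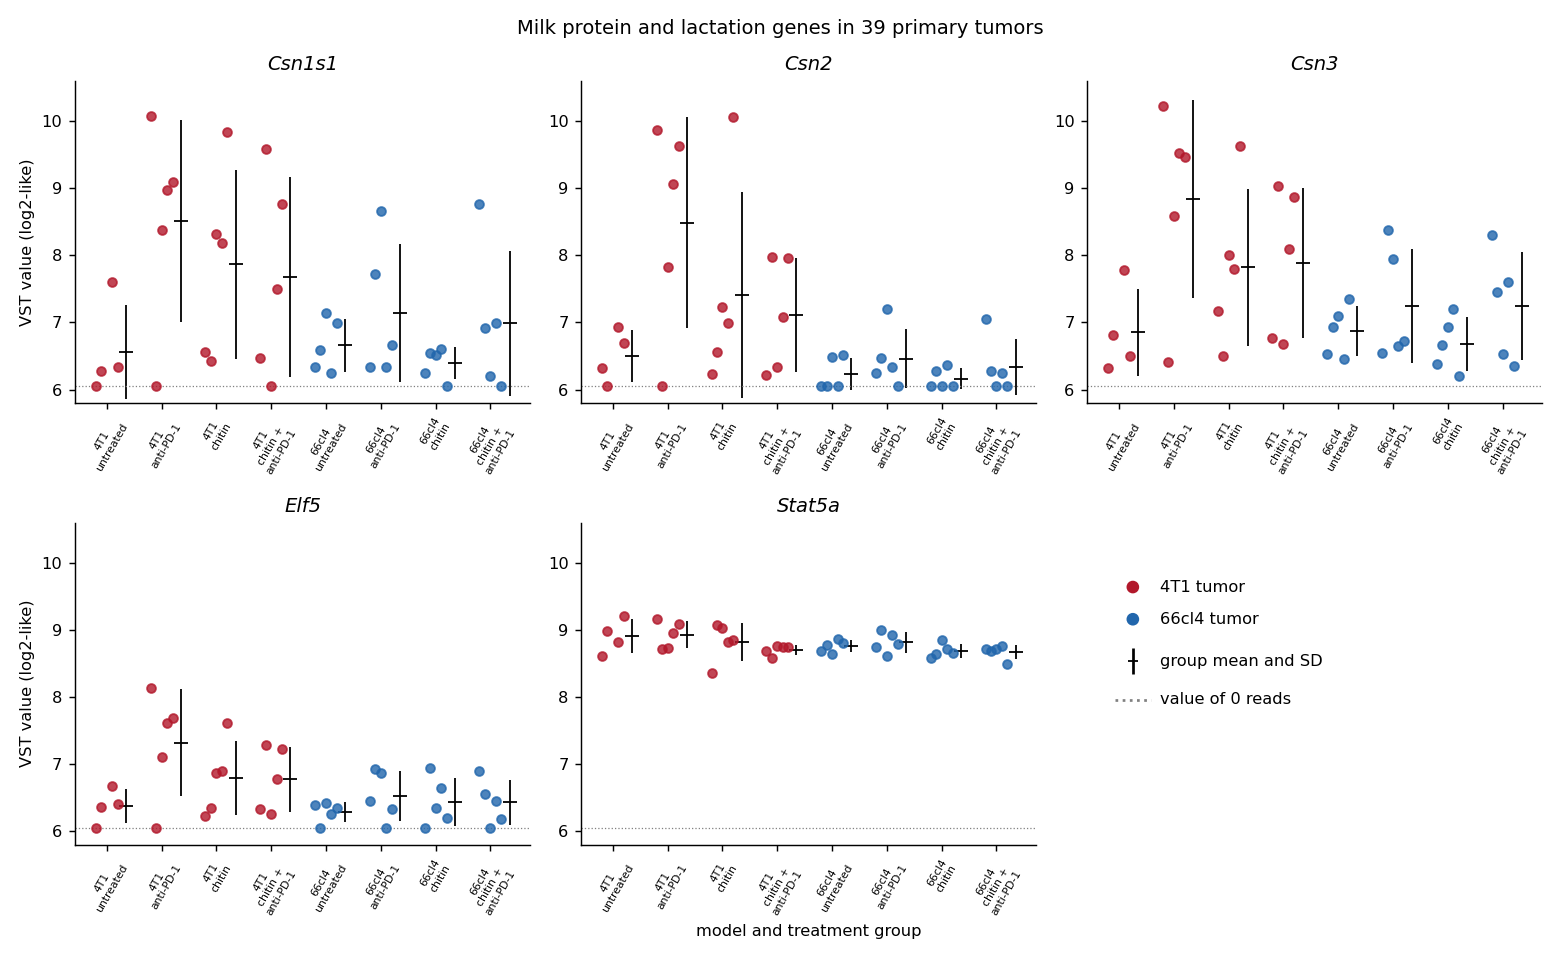
VST values (log2-like) of Csn1s1, Csn2, Csn3, Elf5 and Stat5a in each tumor by model and treatment, with group mean and SD beside the points and a dotted line at the value of 0 reads (6.05). Caseins and Elf5 were high in the same few tumors, while Stat5a stayed between 8.35 and 9.21.

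Csn1s1 encodes an alpha-casein and followed the same tumors. In untreated 4T1 tumors 1, 2, 4 and 5, Csn1s1 had 0, 1, 92 and 2 reads, and in anti-PD-1-treated tumors 1 to 5 it had 741, 0, 166, 446 and 566 reads. Chitin-treated 4T1 tumors had 9, 5, 297, 291 and 630 Csn1s1 reads, and those given chitin + anti-PD-1 had 7, 445, 0, 78 and 268. High tumors thus occurred in all 3 treated 4T1 groups, and each of these groups also held at least 1 tumor with fewer than 10 reads. A count of 0 allows up to 3 reads at these depths. In 66cl4 tumors, Csn1s1 exceeded 50 reads in 3 of 20 tumors: anti-PD-1-treated tumors 2 and 3 (105 and 239 reads) and chitin + anti-PD-1-treated tumor 1 (372 reads). Over all tumors, it passed 10 reads in 20 of 39.

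Csn2 encodes beta-casein and was the casein most often at 0. It had 0 reads in 11 of the 39 tumors, of which 9 were 66cl4 tumors, and passed 10 reads in 11 of 19 4T1 and 2 of 20 66cl4 tumors. In anti-PD-1-treated 4T1 tumors 1 to 5, Csn2 had 629, 0, 89, 482 and 885 reads, against 2, 0, 28 and 10 in untreated tumors 1, 2, 4 and 5. Chitin-treated 4T1 tumors had 1, 9, 69, 49 and 759 Csn2 reads, and those given chitin + anti-PD-1 had 1, 94, 2, 38 and 115. Tumor 5 of the chitin group stood far above its group. The highest 66cl4 value was 40 reads, in chitin + anti-PD-1-treated tumor 1.

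The mix of caseins also varied. In the 14 tumors with at least 200 casein reads, Csn2 made up 1.79 to 39.7% of them (median 12.7%), Csn1s1 25.4 to 61.8% (median 37.4%) and Csn3 27.9 to 66.9% (median 37.1%). Among these, Csn2 made up 9.33 to 39.7% in 11 4T1 tumors and 1.79 to 9.56% in 3 66cl4 tumors.

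Elf5 was low in all tumors and highest in the tumor with the highest casein share. Its VST values were 6.05, 6.36, 6.68 and 6.40 in untreated 4T1 tumors 1, 2, 4 and 5 and 8.14, 6.05, 7.11, 7.61 and 7.68 in anti-PD-1-treated 4T1 tumors 1 to 5. Chitin-treated 4T1 tumors had 6.22, 6.35, 6.87, 6.89 and 7.62, and those given chitin + anti-PD-1 had 6.33, 7.29, 6.25, 6.77 and 7.23. The highest Elf5 count was 128 reads, in anti-PD-1-treated tumor 1, and 6 tumors had 0 reads. In 66cl4 tumors, Elf5 ran from 6.05 to 6.94, that is from 0 to 32 reads, and no tumor exceeded 50 reads.

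Stat5a, in contrast, had 181 to 648 reads in every tumor. Its group means lay between 8.67 ± 0.11 (SD, n = 5) in chitin + anti-PD-1-treated 66cl4 and 8.93 ± 0.20 (n = 5) in anti-PD-1-treated 4T1 tumors. Over all 39 tumors, the SD of the VST value was 0.18 for Stat5a, 0.52 for Elf5, 1.09 for Csn3, 1.11 for Csn2 and 1.21 for Csn1s1.

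Within each model, the caseins and Elf5 varied together around their group means, whereas no relation with Stat5a was detected. A family of 28 relations was computed after subtracting the mean of each treatment group. Each r and rho within a model thus relates deviations from group means, not the levels themselves. Permutation p-values came from 100000 resamples that shuffled tumors within treatment groups. In 4T1 tumors (n = 19), Csn3 and Csn1s1 had r = 0.97 (permutation p = 1e-05, the smallest possible, adjusted 9.33e-05) and rho = 0.98 (permutation p = 1e-05). In 66cl4 tumors (n = 20), they had r = 0.89 (permutation p = 9e-05, adjusted 0.00042) and rho = 0.95 (permutation p = 1e-05). In 4T1, the 2 tumors with Csn3 farthest from their group mean were anti-PD-1 tumor 2 and chitin tumor 5. In 66cl4, they were anti-PD-1 tumor 2 and chitin + anti-PD-1 tumor 1. Without these 2 farthest tumors of each model, r was 0.96 and 0.89. Anti-PD-1-treated 4T1 tumor 1, with the highest Csn3 level, was kept. Csn3 and Csn2 had r = 0.93 in 4T1 (permutation p = 2e-05, adjusted 0.00014, rho = 0.91, permutation p = 2e-05) and 0.76 in 66cl4 tumors (permutation p = 0.00079, adjusted 0.00221, rho = 0.85, permutation p = 0.00012), and 0.89 and 0.78 without the 2 farthest tumors.

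Csn3 and Elf5 had r = 0.97 (permutation p = 1e-05, adjusted 9.33e-05) and rho = 0.96 (permutation p = 2e-05) in 4T1 tumors. In 66cl4 tumors, they had r = 0.76 (permutation p = 0.00123, adjusted 0.00287) and rho = 0.73 (permutation p = 0.00233). Without the 2 farthest tumors, r was 0.95 and 0.65. For Csn3 and Stat5a, r was 0.23 in 4T1 (permutation p = 0.372, adjusted 0.496, rho = 0.14, permutation p = 0.581) and 0.27 in 66cl4 tumors (permutation p = 0.344, adjusted 0.482, rho = 0.25, permutation p = 0.352). No relation of Csn3 with depth was detected. Against log2 total reads, r was -0.069 in 4T1 (permutation p = 0.805, adjusted 0.873, rho = -0.14, permutation p = 0.6) and 0.032 in 66cl4 tumors (permutation p = 0.905, adjusted 0.939, rho = 0.057, permutation p = 0.812). Tumors with more Csn3 had fewer genes at 0 reads in 66cl4 (r = -0.60, permutation p = 0.0101, adjusted 0.0189, rho = -0.56, permutation p = 0.0222, and r = -0.57 without the 2 farthest tumors). In 4T1 tumors, this r was -0.38 (permutation p = 0.126, adjusted 0.196, rho = -0.15, permutation p = 0.543), and -0.18 without the 2 farthest tumors. The part of the genes at 0 reads in the results was not tested.

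**Figure D3:**
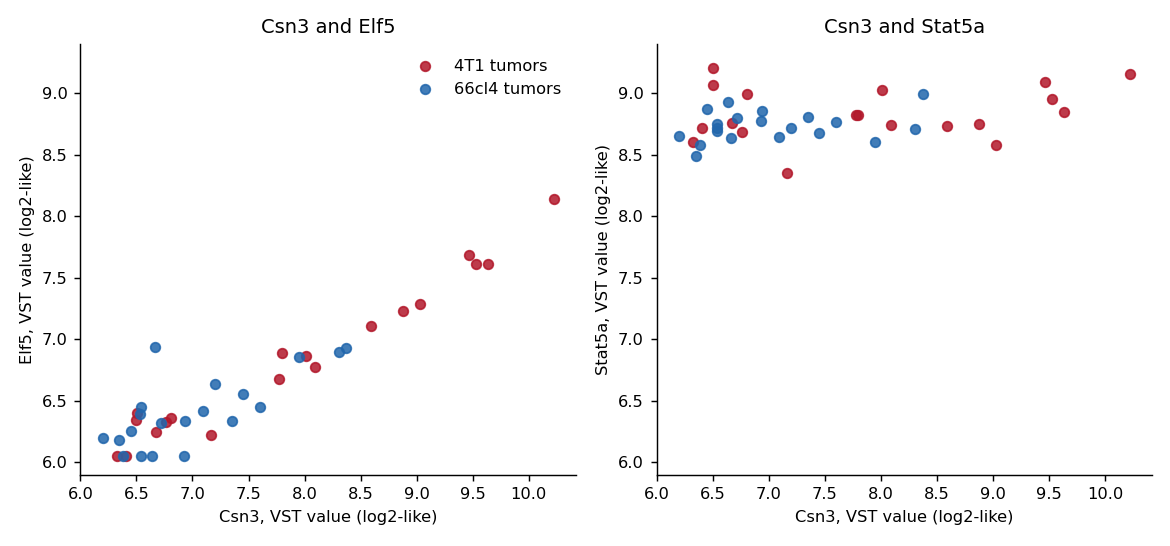
VST values of Elf5 (left) and Stat5a (right) against Csn3 in 39 tumors, 1 point per tumor (red, 4T1; blue, 66cl4). Elf5 increased with Csn3 in both models (r = 0.97 and 0.76, computed after subtracting group means, while levels are plotted), and Stat5a formed a flat band between 8.35 and 9.21.

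The genes whose pattern was most like the caseins were found by the Pearson correlation of each gene with the mean of Csn1s1, Csn2 and Csn3 over the 39 tumors, after subtracting the mean of each of the 8 groups. These correlations are a description. Elf5 (0.94) ranked 2 of 14315 genes and Stat5a (0.24) ranked 3363. The 10 other genes at the top were Cel (0.94), Btn1a1 (0.93), Clic6 (0.89), Muc15 (0.89), Igfbp5 (0.88), Fcgbp (0.88), Sncg (0.86), Slc7a10 (0.85), Clca3a2 (0.85) and Oxtr (0.84). Cel encodes the bile salt-stimulated lipase that is secreted into milk, Btn1a1 the butyrophilin of the milk fat globule membrane, Muc15 a mucin of that membrane, Igfbp5 an insulin-like growth factor binding protein of the involuting gland, and Oxtr the oxytocin receptor of the contractile myoepithelium. All 10 were highest in anti-PD-1-treated 4T1 tumor 1. Ranking by Spearman correlation kept 8 of the 10, as did leaving out the 3 tumors with the highest casein mean.

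Not all of the listed genes of lactation behaved in this way. The listed genes held 8 of 11 other secreted milk protein genes, 11 of 15 milk fat genes and 4 of 8 lactose synthesis and transport genes. Of the cell markers used below, they held 7 of 8 neutrophil and 4 of 8 B and plasma cell genes. Nothing is known here of the genes left out. Of 8 other secreted milk protein genes, 4 had a correlation over 0.7 with the casein mean (median 0.66, from -0.22 for Pigr to 0.94 for Cel), and of 11 milk fat genes 3 did (median 0.44). None of 4 lactose synthesis and transport genes did (median -0.22). Of 13 prolactin and STAT5 signalling genes, only the prolactin receptor gene Prlr did (0.84, median of the list 0.083), and of 9 luminal and alveolar transcription factor genes only Sox10 did (0.82, median 0.18). Over all genes, the median was -0.013, and 103 of 14315 (0.72%) exceeded 0.7. Of 10 involution genes, only Igfbp5 exceeded it (median 0.22).

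Markers of other cell types of the gland also moved with the caseins. Of 12 adipocyte markers, 10 had a correlation over 0.7 (median 0.79, from 0.55 for Pnpla2 to 0.84 for Lep, the leptin gene), and of 9 basal and myoepithelial markers 2 did (median 0.55). The median was 0.61 for 4 B and plasma cell markers, 0.40 for 8 macrophage markers and 0.35 for 6 hormone-sensing luminal markers. It was 0.066 for 12 skeletal muscle markers, -0.13 for 7 neutrophil markers and -0.16 for 9 luminal epithelial markers. Neither muscle, neutrophil nor luminal markers thus followed the casein level over all tumors.

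Within models, Csn3 and the mean of the adipocyte markers had r = 0.81 in 4T1 (permutation p = 0.00117, adjusted 0.00287, rho = 0.78, permutation p = 0.00107) and 0.82 in 66cl4 tumors (permutation p = 0.00071, adjusted 0.00221, rho = 0.79, permutation p = 0.00101), and 0.72 and 0.69 without the 2 farthest tumors. The adipocyte mean ran from 6.74 in anti-PD-1-treated 4T1 tumor 2, the 4T1 tumor with the lowest casein share, to 10.40 in tumor 1 of the same group, the highest. Adipoq, which encodes adiponectin, had 0 to 722 reads and was at 0 in 4 tumors. With the basal and myoepithelial mean, r was 0.57 in 4T1 (permutation p = 0.00893, adjusted 0.0179, rho = 0.62, permutation p = 0.00554) and 0.82 in 66cl4 tumors (permutation p = 0.0003, adjusted 0.00105, rho = 0.81, permutation p = 0.00045), and 0.42 and 0.77 without the 2 farthest tumors. With the B and plasma cell mean, it was 0.62 in 4T1 (permutation p = 0.0222, adjusted 0.0388, rho = 0.48, permutation p = 0.0595) and 0.75 in 66cl4 tumors (permutation p = 0.00205, adjusted 0.00442, rho = 0.78, permutation p = 0.00133). Without the 2 farthest tumors, r was 0.30 in 4T1, where the relation thus rested on these tumors, and 0.76 in 66cl4. The part of adipocyte, myoepithelial or B cell RNA in the casein differences was not tested.

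With the luminal epithelial mean, Csn3 had r = 0.75 in 66cl4 tumors (permutation p = 0.00023, adjusted 0.00092, rho = 0.74, permutation p = 0.00091) and r = -0.41 in 4T1 tumors (permutation p = 0.175, adjusted 0.258, rho = -0.43, permutation p = 0.104). Without the 2 farthest tumors, r was 0.78 and -0.35. The difference between these correlations was not tested. In 66cl4, where Epcam had at most 153 reads, tumors with more Csn3 than their group mean thus tended to have more luminal marker RNA, also relative to their group.

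**Figure D4:**
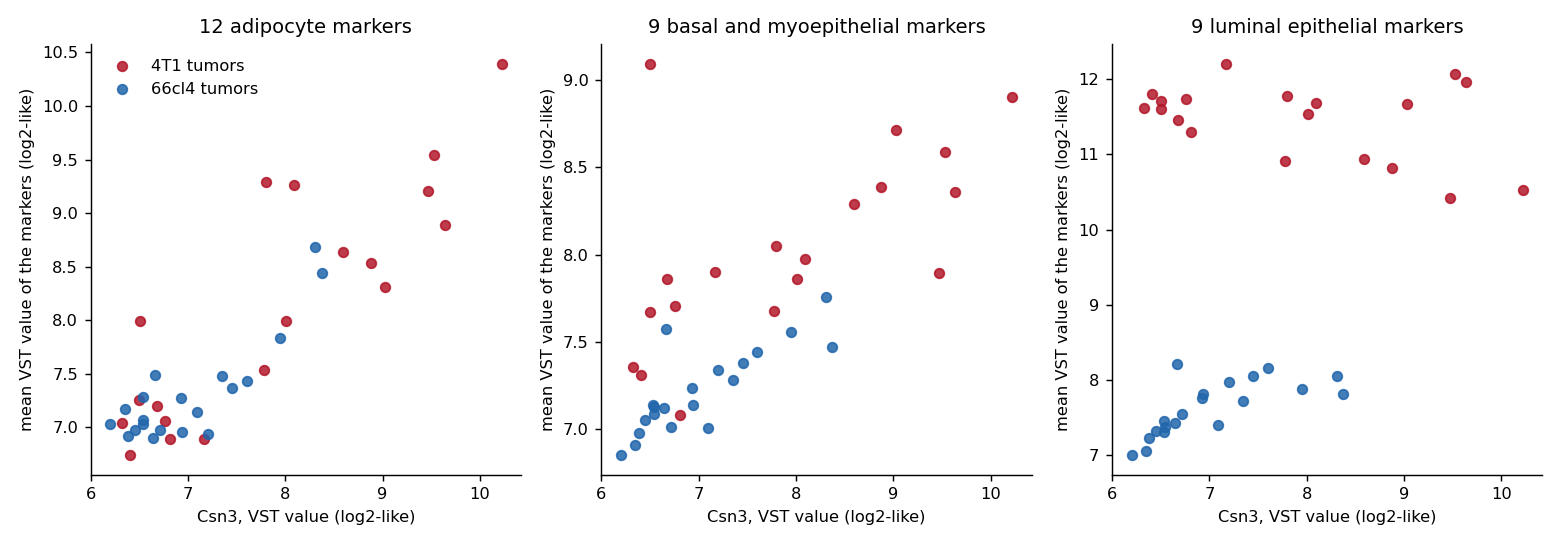
Mean VST value of 12 adipocyte, 9 basal and myoepithelial and 9 luminal epithelial markers against Csn3, 1 point per tumor (red, 4T1; blue, 66cl4). The adipocyte mean increased with Csn3 in both models (r = 0.81 and 0.82, computed after subtracting group means, while levels are plotted). The luminal mean only spanned 7.0 to 8.2 in 66cl4 against 10.4 to 12.2 in 4T1 tumors.

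The comparison of models asked whether the members differed between 4T1 and 66cl4 tumors. The table holds genes with over 10 reads in at least 8 tumors. In 4T1 and 66cl4 tumors, Csn1s1 passed 10 reads in 11 and 9 tumors, Csn3 in 14 and 13, Csn2 in 11 and 2 and Elf5 in 11 and 5. With a bar of 8 tumors, Csn2 and Elf5 could not have entered the table through 66cl4 tumors alone. The filter stated in the paper needs fewer tumors, so this is not settled for Elf5. The values of Csn2 and Elf5 in this comparison are a description and no support for a difference. Averaged over treatments and on the VST scale, Csn2 was 1.08 higher in 4T1 tumors (SE 0.27, limma adjusted p = 0.000522), Csn1s1 0.86 (SE 0.33, adjusted p = 0.0191), Csn3 0.84 (SE 0.29, adjusted p = 0.00817) and Elf5 0.39 (SE 0.14, adjusted p = 0.0110). Stat5a differed by 0.11 (SE 0.05, limma adjusted p = 0.0745), with a 95% interval of -0.0048 to 0.22, and passed with weights estimated for each tumor (0.15, adjusted p = 0.00437). The 4 members past the threshold thus include Csn2 and Elf5, which reached 8 tumors only with the model in which they are high. Nothing is read from the count of members. Over all 14318 genes, 78.8% passed it (40.8% higher and 38.0% lower in 4T1). In normalized counts, Csn2 averaged 178 ± 299 (SD, n = 19) in 4T1 and 5.38 ± 11.7 (n = 20) in 66cl4 tumors. For Csn1s1 the means were 224 ± 291 and 43.8 ± 90.1, for Csn3 240 ± 300 and 47.8 ± 63.4, for Elf5 34.5 ± 44.6 and 7.21 ± 9.14 and for Stat5a 339 ± 67.6 and 305 ± 35.6. The SD exceeded the mean for all members but Stat5a.

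These calls were not made in every set of tumors or with every test. In untreated tumors alone, no member passed (adjusted p of 0.915 for Csn1s1, 0.708 for Csn2, 0.981 for Csn3 and 0.828 for Elf5 with limma, 4 against 5 tumors), and Csn1s1 and Csn3 differed by -0.096 and -0.018, while 7983 genes passed. With limma-voom on recovered reads, only Csn2 passed with the recovered size factors and no member with upper quartile library sizes (Csn2 adjusted p of 0.0496 and 0.0556). On the log2 scale of reads, the differences under these settings were 3.86 (SE 1.80) and 3.81 (SE 1.82) for Csn2, 2.08 and 2.03 for Csn1s1, 1.77 and 1.73 for Csn3 and 1.72 and 1.67 for Elf5, all higher in 4T1 and larger than on the VST scale. Their adjusted p-values with limma-voom were 0.241 and 0.254 for Csn1s1, 0.130 and 0.142 for Csn3 and 0.0825 and 0.0947 for Elf5. The following alternatives were chosen after seeing the data. In anti-PD-1-treated tumors alone, Csn2 differed by 2.03 (SE 0.53, limma adjusted p = 0.00152), Csn3 by 1.60 (SE 0.56, adjusted p = 0.0150), Elf5 by 0.79 (SE 0.28, adjusted p = 0.0137) and Csn1s1 by 1.37 (SE 0.66, adjusted p = 0.0707). In chitin-treated tumors alone only Csn2 passed (1.25, SE 0.53, limma adjusted p = 0.0423), and in chitin + anti-PD-1-treated tumors no member did. Without the anti-PD-1 groups of both models in the average, Csn1s1, Csn3 and Elf5 did not pass. Csn2 differed by 0.77 (SE 0.31, limma adjusted p = 0.0278), but it passed 10 reads in only 2 of 20 66cl4 tumors, and this value is no support either.

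Other genes of lactation were compared between models as well. Over all genes, 40.8% were higher and 38.0% lower in 4T1, and the counts of genes given here stand beside these shares. Of the 8 other secreted milk protein genes, 5 were higher and 1 was lower in 4T1 (median difference of the list 0.51, against 0.015 over all genes). Ltf, which encodes the iron-binding lactoferrin, was 1.53 higher (SE 0.33, limma adjusted p = 9.6e-05), Pigr, the transporter of immunoglobulin A into milk, 1.33 higher (SE 0.18, adjusted p = 3.8e-08), Muc1 0.85 higher (SE 0.11, adjusted p = 1.5e-08), and Spp1, the osteopontin gene, was lower, with a difference of -0.75 (SE 0.17, adjusted p = 0.00015). Of the 11 milk fat genes, 6 were higher and 1 was lower (median 0.30). Fasn, the fatty acid synthase gene, was 0.80 higher (SE 0.15, limma adjusted p = 7.8e-06), and the desaturase gene Scd2 was lower, with a difference of -0.54 (SE 0.07, adjusted p = 2.1e-08). Cel and Btn1a1, chosen because they followed the caseins in these tumors, were 0.63 (SE 0.17, limma adjusted p = 0.00115) and 0.33 higher (SE 0.15, adjusted p = 0.0468). Cel had a median of 2 reads and 0 reads in 11 tumors. The values of both genes are a description and no support for the casein differences. In the same comparison, 3 of the 4 lactose synthesis and transport genes were higher and 1 was lower (median 0.62). B4galt1, the galactosyltransferase that LALBA turns into lactose synthase, was 1.21 higher (SE 0.06, limma adjusted p = 4.4e-19).

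In prolactin and STAT5 signalling, 8 of 13 genes were higher and 3 lower in 4T1 tumors (median 0.32), beside 40.8% higher and 38.0% lower over all genes. Jak2, the kinase of the prolactin receptor, was 2.14 higher (SE 0.08, limma adjusted p = 1.2e-22), and Cish and Socs2, inhibitors that STAT5 induces, were 2.04 (SE 0.09, adjusted p = 3.8e-20) and 1.41 higher (SE 0.07, adjusted p = 1.1e-19). Prlr itself, chosen after its values were seen, differed by 0.027 (SE 0.25, adjusted p = 0.92). Around group means, Jak2 had the lowest correlation of this list with the casein mean (-0.58), and the values were -0.18 for Cish and 0.20 for Socs2. Of 9 luminal and alveolar transcription factor genes, 7 were higher and none was lower (median 0.41), with Elf3 1.64 (SE 0.15, adjusted p = 7.0e-12) and Cebpb 0.93 higher (SE 0.13, adjusted p = 5.6e-08). Of 10 involution genes, 7 were higher and 2 lower (median 0.74). Timp3, an inhibitor of matrix proteases, was 1.79 higher (SE 0.14, limma adjusted p = 2.0e-13), Lif, the cytokine that activates STAT3 in involution, 1.35 higher (SE 0.11, adjusted p = 2.7e-13), and the lysosomal protease gene Ctsb lower, with a difference of -0.85 (SE 0.06, adjusted p = 4.9e-14).

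Among the cell markers, all 9 luminal epithelial genes (median 4.18), 10 of 12 adipocyte genes (0.78), 10 of 12 skeletal muscle genes (0.83), 6 of 7 neutrophil genes (0.76) and 2 of 4 B and plasma cell genes (0.42) were higher in 4T1, and none of these lists held a gene that was lower. Of 9 basal and myoepithelial genes, 6 were higher and 2 lower (0.80), and of 6 hormone-sensing genes 2 were higher and 1 was lower (0.16). All 8 macrophage genes were lower (median -1.14). Over all genes, 40.8% were higher and 38.0% lower in 4T1. In untreated tumors, the median of the luminal mean was 11.45 in 4T1 and 7.46 in 66cl4, while Csn1s1 and Csn3 differed by -0.096 and -0.018. The part of these cell types in the members' differences was not tested.

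The treatment comparisons asked whether members differed from untreated tumors or between chitin-containing and other groups. No member passed the test in any of the 8 comparisons within a model, and neither did any other gene (0% of 14318 genes with limma in each). Between 367 and 2238 genes had an unadjusted p under 0.05 in these comparisons, and limma-voom on recovered reads called 0 genes in each as well. The largest member differences were in anti-PD-1-treated against untreated 4T1 tumors. Csn3 differed by 1.99 (SE 0.72, 95% interval 0.49 to 3.50, limma adjusted p = 0.517), Csn2 by 1.99 (SE 0.75, adjusted p = 0.518), Csn1s1 by 1.95 (SE 0.83, adjusted p = 0.531), Elf5 by 0.94 (SE 0.35, adjusted p = 0.517) and Stat5a by 0.024 (SE 0.14, adjusted p = 0.974). The unadjusted p-values of the first 4 were 0.0124, 0.0163, 0.0297 and 0.0151, among 1273 genes with an unadjusted p under 0.05. With weights estimated for each tumor, the same 4 members passed (differences of 2.74 for Csn3, 2.92 for Csn2, 2.74 for Csn1s1 and 1.38 for Elf5, adjusted p of 0.0154, 0.0136, 0.0291 and 0.0151), as did 960 genes in all. Tumor 2 of the anti-PD-1 group then had the lowest weight of the 4T1 tumors (0.308), and tumors 5 and 1 of that group had the highest (4.22 and 3.18). Tumors 5 and 1 ranked 3 and 1 of the 39 tumors in casein share. Without tumor 2, the adjusted p-values were 0.0584, 0.0690, 0.0933 and 0.0556, no member passed, and 80 genes did.

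The median difference in this comparison was 1.59 for the 12 adipocyte markers, 1.04 for 4 B and plasma cell markers, 0.28 for the basal and myoepithelial markers and -0.17 for the luminal epithelial markers, and none of these lists held a gene that passed. Adipoq differed by 1.75 (SE 0.67) and Lep by 0.88 (SE 0.25, limma adjusted p of 0.518 and 0.517). The median difference was 0.66 for the other secreted milk protein genes, 0.48 for the milk fat genes, -0.18 for the lactose genes, -0.012 for prolactin and STAT5 signalling and -0.00053 over all genes. In 66cl4, anti-PD-1-treated and untreated tumors differed by 0.48 in Csn1s1 (SE 0.44, limma adjusted p = 0.934), 0.23 in Csn2 (SE 0.19, adjusted p = 0.918), 0.37 in Csn3 (SE 0.37, adjusted p = 0.936) and 0.23 in Elf5 (SE 0.18, adjusted p = 0.911). Whether the anti-PD-1 difference differed between models was not tested.

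Chitin-treated and untreated 4T1 tumors differed by 1.30 in Csn1s1, 0.92 in Csn2, 0.97 in Csn3 and 0.41 in Elf5, and chitin + anti-PD-1-treated and untreated tumors by 1.11, 0.61, 1.03 and 0.40, respectively. The limma adjusted p was 1.00 for all of these, and the 95% intervals of Csn3 were -0.54 to 2.47 and -0.47 to 2.54. The 3 treated 4T1 groups were compared with the same 4 untreated tumors. In 66cl4, the same comparisons gave -0.27, -0.070, -0.19 and 0.14 for chitin and 0.32, 0.11, 0.38 and 0.14 for chitin + anti-PD-1.

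Between chitin-containing and other groups, Csn3 differed by 0.0065 in 4T1 (SE 0.49, 95% interval -1.03 to 1.04) and by -0.094 in 66cl4 tumors (SE 0.26, -0.64 to 0.45). The differences of Csn1s1, Csn2 and Elf5 were 0.23, -0.23 and -0.065 in 4T1 and -0.21, -0.096 and 0.022 in 66cl4, with limma adjusted p-values of 0.965 to 0.986 and 0.781 to 0.954. Several of these signs turned when single tumors were left out. Stat5a differed by -0.15 in 4T1 (SE 0.10, 95% interval -0.36 to 0.050, limma adjusted p = 0.775) and by -0.11 in 66cl4 (SE 0.05, -0.21 to 0.0015, adjusted p = 0.326).

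The chitin difference of 4T1 minus that of 66cl4 passed the test for 14 genes (0.0978%), with 0.0210% of genes higher and 0.0768% lower, and none of them was a member. It was 0.44 for Csn1s1 (SE 0.67), -0.13 for Csn2 (SE 0.54), 0.10 for Csn3 (SE 0.57), -0.087 for Elf5 (SE 0.28) and -0.049 for Stat5a (SE 0.11), with limma adjusted p-values of 0.836 to 0.965. The 95% intervals were -0.91 to 1.80 for Csn1s1, -1.23 to 0.96 for Csn2 and -1.06 to 1.26 for Csn3.

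**Figure D5:**
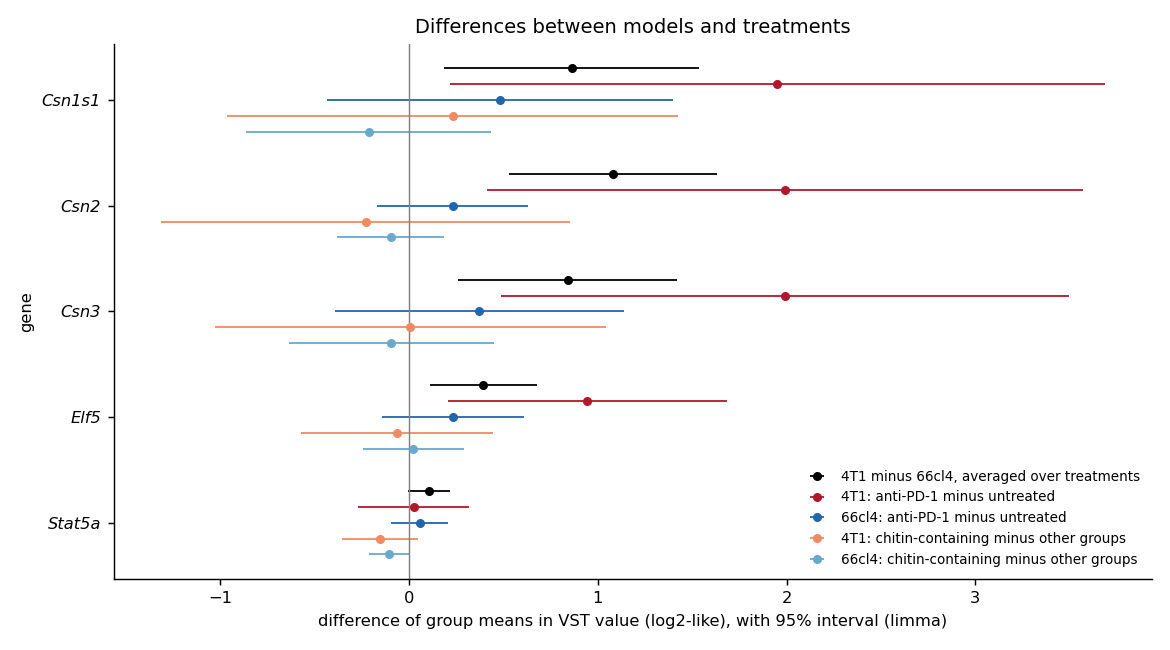
Differences of group means in VST value (log2-like) with 95% limma intervals for the 5 members in 5 comparisons: 4T1 minus 66cl4, anti-PD-1 minus untreated in each model, and chitin-containing minus other groups in each model. The intervals of the caseins are widest in 4T1, where Csn3 differed by 1.99 after anti-PD-1 (0.49 to 3.50), and those of Stat5a are narrow.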

How the data were processed

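RNA of 39 primary tumors was sequenced by the authors (stranded TruSeq libraries, 150-base paired reads, NovaSeq), aligned to mm10 with HISAT2 and counted per gene with summarizeOverlaps, with strand. Versions and the annotation are not given in the sources used here. The deposited values are on a log2 scale, made by the authors with the variance stabilizing transformation of DESeq2 after a filter on low counts. By the recovered reads, each gene of the table passed 10 reads in 8 tumors or more, so that a gene could enter it through a few high tumors. The filter stated in the paper needs fewer tumors, and the reason for this difference is not known. An untreated 4T1 tumor removed by the authors for RNA degradation was not analysed here.

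The lowest value marks 0 reads and fixes the transformation, which was inverted. This gave whole reads for 100% of values (tolerance 0.001). Normalized counts are reads divided by the size factor. Lengths for levels per kb are summed exons of GENCODE (GRCm38), merged over all transcripts of a gene. Positions and promoters are from RefSeq (GRCm38.p6).

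Differences were tested with lmFit, contrasts.fit and eBayes (trend) of limma 3.58.1 under R 4.3.3, in 1 fit per model for treatments and 1 fit of 8 groups for models, two-sided, with Benjamini-Hochberg adjustment over 14318 genes and a threshold of 0.05. The procedure was also run on simulated normal values with 1 SD per gene in all groups and no floor. The caseins have a floor at 0 reads and SDs that differ between groups, so this run does not show how the test behaves for them. Mice were caged individually, but the labels do not say whether tumors are from separate mice, so p-values measure the spread between these tumors.

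The members and all gene lists were chosen with earlier results of these data known. Genes named besides members were the 10 most like the caseins and, per list and comparison, up to 4 genes past the threshold (smallest adjusted p first; otherwise the 2 with the highest mean). Genes named for their correlation with the caseins or as markers were chosen after their values were seen. Alternatives were a filter on low values, other variance models, array weights, median centring, limma-voom, equal read depth and the tumor number as a block. Further alternatives were 1 fit of both models, leaving out single tumors, and leaving treatments out of the contrast but not of the fit. Some alternatives were added after seeing the data: single treatments other than untreated and the average without anti-PD-1 groups. All alternatives for single members in the 4T1 anti-PD-1 comparison were also added then.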

Additional observations from a re-analysis of the deposited data

Results flagged for a closer look

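Of 40 combinations of a member and a group, 2 held a tumor whose gap to the nearest other tumor exceeded Dixon's 95% critical value, and chance flags about 1 in 20 groups. Both were high values of Csn2. In the 4T1 chitin group, tumor 5 had a VST value of 10.07 (759 reads), with the next tumor at 7.23. In the 66cl4 chitin + anti-PD-1 group, tumor 1 had a value of 7.06 (40 reads), with the next at 6.28.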

How the results depend on the processing

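The precision was limited by 4 or 5 tumors per group and by few reads: of the 39 tumors, Csn2 exceeded 10 reads in 13 and 50 reads in 8, Csn3 in 27 and 17, and Elf5 in 16 and 4. The cause of the changes listed here was not tested. With array weights, the genes called were 297 for chitin-containing against other 4T1 groups, 960 for 4T1 anti-PD-1 against untreated (4 of them members), 185 for chitin-containing against other 66cl4 groups and 1004 for the difference of the chitin differences. With both models in 1 fit, they were 58 and 60 for the first 2 of these comparisons, 3 for 4T1 chitin + anti-PD-1 against untreated and 1 for chitin-containing 66cl4 groups, with no member among them. Without the lowest 25% of genes, 6 genes were called for chitin-containing 66cl4 groups and 8 for the difference of the chitin differences, and 1 member in 4T1 against 66cl4, where only 2 members were tested.

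In 4T1 against 66cl4, the members called were 1 with limma-voom and recovered size factors, 0 with upper quartile library sizes, 0 in untreated tumors, 1 in chitin-treated tumors, 0 in chitin + anti-PD-1-treated tumors and 1 without the anti-PD-1 groups. The differences with limma-voom, on the log2 scale of reads, were larger than on the VST scale (3.86 and 3.81 against 1.08 for Csn2, 2.08 and 2.03 against 0.86 for Csn1s1, 1.77 and 1.73 against 0.84 for Csn3 and 1.72 and 1.67 against 0.39 for Elf5). In untreated tumors, the differences of Csn1s1 and Csn3 turned to -0.096 and -0.018. In chitin-containing against other groups, array weights turned those of Csn1s1 and Csn3 in 4T1 to -0.27 and -0.48, and limma-voom turned that of Elf5 in 66cl4 to -0.26 and -0.24. None of these reversed differences passed the test.

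The tumor number was not taken to pair the tumors, since in 0 of 12 pairs of groups were all correlations of same-numbered tumors over 0.1, the bar set for pairing. Of 57 same-numbered pairs, 22 had a correlation of deviations from group means over 0.1 (range -0.39 to 0.54, median 0.014). In untreated and anti-PD-1-treated 66cl4 tumors, 4 of 5 pairs were over it (0.28 to 0.54, the other -0.093), and 7 of 10 tumors correlated best with their own number. In 0 of the 12 pairs of groups did every tumor do so. With the number as a replicate block, the genes called were 1 for 4T1 chitin + anti-PD-1, 16 for chitin-containing 66cl4 groups, 2 for 66cl4 chitin, 7 for 66cl4 chitin + anti-PD-1 and 104 for the difference of the chitin differences, and no call of a member changed.

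Leaving out single tumors gave 0 to 1 genes for chitin-containing 4T1 groups, 0 to 80 for 4T1 anti-PD-1 (80 without anti-PD-1 tumor 2), 0 to 269 for chitin-containing 66cl4 groups (269 without untreated tumor 3), 0 to 25 for 66cl4 chitin, 0 to 3 for 66cl4 chitin + anti-PD-1 and 0 to 677 for the difference of the chitin differences (677 without 4T1 anti-PD-1 tumor 2). In 4T1 against 66cl4, it left 4 to 5 members called. It turned signs for chitin-containing groups in 4T1, where the differences ran from -0.078 to 0.43 for Csn1s1, from -0.30 to 0.18 for Csn3 and from -0.22 to 0.037 for Elf5, and in 66cl4, where they ran from -0.23 to 0.047 for Csn3 and from -0.041 to 0.074 for Elf5. For Stat5a in 4T1 anti-PD-1 against untreated, they ran from -0.076 to 0.12.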
